A study of Mus musculus with 12 samples.

Results

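Regulatory T cells (Treg) were set against conventional CD4 T cells (Tconv) of mouse spleen over 3 conditions, with all 6 Treg and all 6 Tconv libraries, which are the 12 libraries of the study. Membership was read from the sample titles, and condition entered the model as an additive term, so that a difference is one between the cell types after what a condition does to both has been taken out. Each cell type had 2 libraries from young wild-type C57BL/6 mice of 2 months, 2 from aged wild-type C57BL/6 mice of over 18 months, and 2 from C57BL/6 mice of 2 months whose genotype is given as Dcaf1-deficient. Treg were sorted as CD4+CD25+ cells; for Tconv the labels name CD4 alone and give no gate that would keep CD25-positive cells out. For the deficient mice the labels give no allele, Cre driver or deleted cell type, and they do not say whether the 2 libraries of a group came from separate mice, so p-values measure the spread between these libraries, which may be technical. RNA was poly(A)-enriched, and the study asked which genes differ with cell type, age and Dcaf1.

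Treg restrain immune responses. The transcription factor Foxp3 sets their identity, and they carry the high-affinity interleukin-2 (IL-2) receptor, whose alpha chain CD25 is encoded by Il2ra. IL-2 signals through JAK kinases to the transcription factor STAT5, which binds DNA at the palindrome TTCNNNGAA and switches on feedback inhibitors of the SOCS family, among them Cish and Socs2. Tconv help other cells instead, for example through CD40 ligand on activated cells, and naive Tconv depend on the transcription factors Tcf7 and Lef1.

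Several facts about the libraries stand before the results. The totals of estimated counts lay between 18358477 (aged Tconv 1) and 26852448 (Dcaf1-deficient Treg 1), so that 3 counts equal 0.112 to 0.163 CPM, the count relative to the TMM-scaled library total, for counting error only. The tag L4 in the titles marks 5 of 6 Treg and 1 of 6 Tconv libraries, L5 marks 4 Tconv libraries and no Treg library, and L3 marks aged Treg 2 and aged Tconv 2; tag and cell type can hardly be told apart. Xist, the transcript of the inactive X chromosome, was at 1263 to 2018 CPM in 2 of 6 Treg and 3 of 6 Tconv libraries and at 1.37 to 2.94 CPM in the others. The targeted gene Dcaf1 (listed as Vprbp) was at 102 and 101 CPM in Treg labelled Dcaf1-deficient and 132 and 132 CPM in Tconv so labelled, against 90.5 to 147 CPM in the 8 wild-type libraries, and such a level says nothing about a missing exon. Rpl29, a ribosomal protein gene on the same chromosome, was at 31.5 to 43.0 CPM in the 4 libraries labelled deficient and at 438 to 845 CPM in 7 of the 8 wild-type ones, but at 92.7 CPM in the library labelled aged Treg 1. That library also had a Spearman correlation of 0.997 over genes with the one labelled Dcaf1-deficient Treg 1, so its label is in doubt.

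Treg and Tconv differed at many genes, and nearly always in one direction under all 3 conditions. Of 9495 genes, the edgeR quasi-likelihood test called 2350 (adjusted p under 0.05), and 2346 of these had the same sign of the fold change in young, aged and Dcaf1-deficient mice. Of those 2346, 1212 genes (12.8% of those tested) were higher in Treg and 1134 (11.9%) were lower; these are the called genes below. One sign in all 3 conditions was also seen at 58.9% of all genes tested, called or not. The 4 called genes with mixed signs, Gtf2ird1, Nptxr, Sh2d1a and Sphk1, are left out. Past a 2-fold difference lay 770 of the called genes higher in Treg and 212 of the called genes lower. In 493 of the higher and 647 of the lower called genes the 2 Treg libraries did not overlap the 2 Tconv libraries in any of the 3 conditions (5.74% of tested genes had that layout with Treg above and 7.51% with Treg below, called or not). All 6 Treg libraries stood clear of all 6 Tconv libraries at 175 higher and 214 lower called genes (1.89% and 2.3% of tested genes had that separation, called or not).

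The counts leaned on single libraries. The higher calls shrank to 40.7% of their number without young Treg 2, to 58.7% and 56.4% without Dcaf1-deficient Treg 1 or 2, to 62.2% without young Tconv 1, to 62.4% without aged Tconv 1, and to 48.9% and 48.3% without Dcaf1-deficient Tconv 1 or 2. The lower calls shrank to 52.8%, 54.9%, 54.8%, 46.8%, 62.3%, 38.8% and 56.8% without those same libraries in that order, and to 65.4% without young Tconv 2. Without the doubtful aged Treg 1 the counts were 1028 and 996. Called under each omission of 1 library were 406 higher and 403 lower genes. A term for the tag left 93 higher and 72 lower, and leaving out all libraries labelled Dcaf1-deficient left 22 and 17.

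**Figure D1:**
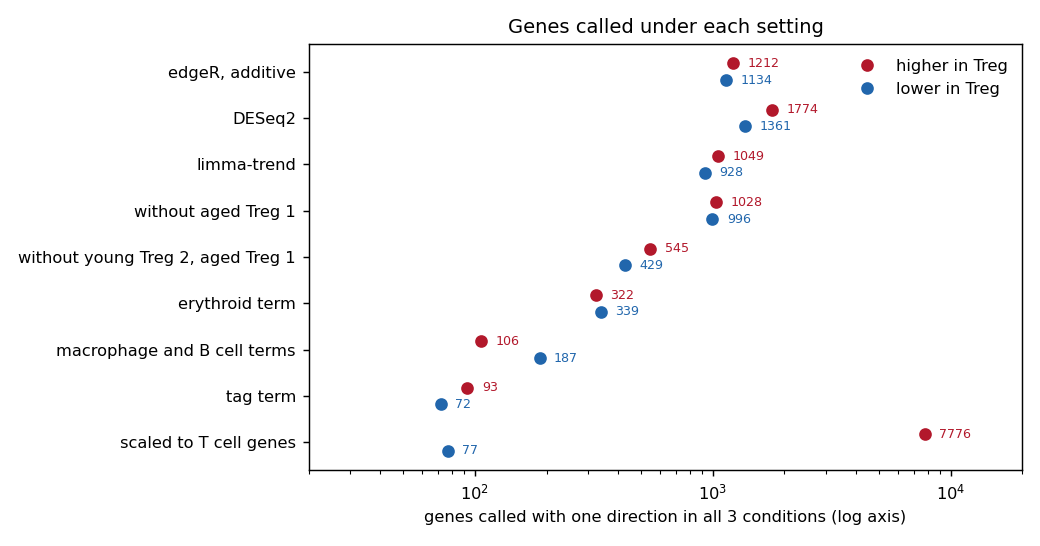
Number of genes called with one direction in all 3 conditions (log axis) under 9 settings of the Treg against Tconv comparison, red for higher in Treg and blue for lower. The additive edgeR test gave 1212 and 1134, macrophage and B cell terms 106 and 187, and scaling to T cell genes 7776 and 77.

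Transcripts of other blood cells were more abundant in Treg libraries than in Tconv libraries. Of 13 macrophage genes tested 12 were called higher in Treg, with a median log2 fold change of 4.80, against a median of -0.00367 over all genes. Their summed level was 251 and 5224 CPM in the young Treg libraries, 13173 and 1368 in those of aged mice and 15414 and 19007 in those labelled Dcaf1-deficient, against 31.7 to 1375 CPM in Tconv. Young Treg 1 and aged Treg 2 were therefore low among the Treg, and overlapped the Tconv. C1qa, a complement gene of macrophages, had its lowest level at 9.79 CPM, a median of 403 CPM and its highest at 756 CPM in Treg, against 0.282, 8.71 and 56.5 CPM in Tconv; its call was lost without young Treg 2.

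The B cell list behaved alike. It had 6 of 9 members called higher and sums of 95.5 to 3079 CPM in Treg, against 48.1 to 393 CPM in Tconv. Cd79b, a signalling chain of the B cell receptor, had a lowest, median and highest level of 27.03, 525 and 585 CPM in Treg and 4.08, 24.2 and 66.9 CPM in Tconv, and also lost its call without young Treg 2. Of 7 erythroid genes 5 were called higher (sums of 76.2 to 12079 CPM in Treg and 12.7 to 1514 CPM in Tconv); globin copies share sequence, so single globin genes are uncertain. Of 9 neutrophil and precursor genes 7 were called higher, with sums of 8.80 to 673 CPM in Treg and 6.71 to 96.7 CPM in Tconv.

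T cell genes made up a smaller share of the Treg libraries. Their 12 tested members summed to 8633 and 5891 CPM in the young Treg libraries, 4513 and 8668 in those of aged mice and 4115 and 3719 in those labelled Dcaf1-deficient, against 10740 to 11988 CPM in Tconv, with no overlap. Of these members 8 were called lower in Treg and none higher, with a median log2 fold change of -0.90. Thy1, a glycoprotein of the T cell surface, spanned 305 to 733 CPM in Treg with a median of 493, against 569 to 1215 CPM in Tconv with a median of 1119. In bulk RNA fewer T cells in a library and less of these transcripts per T cell cannot be told apart.

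**Figure D2:**
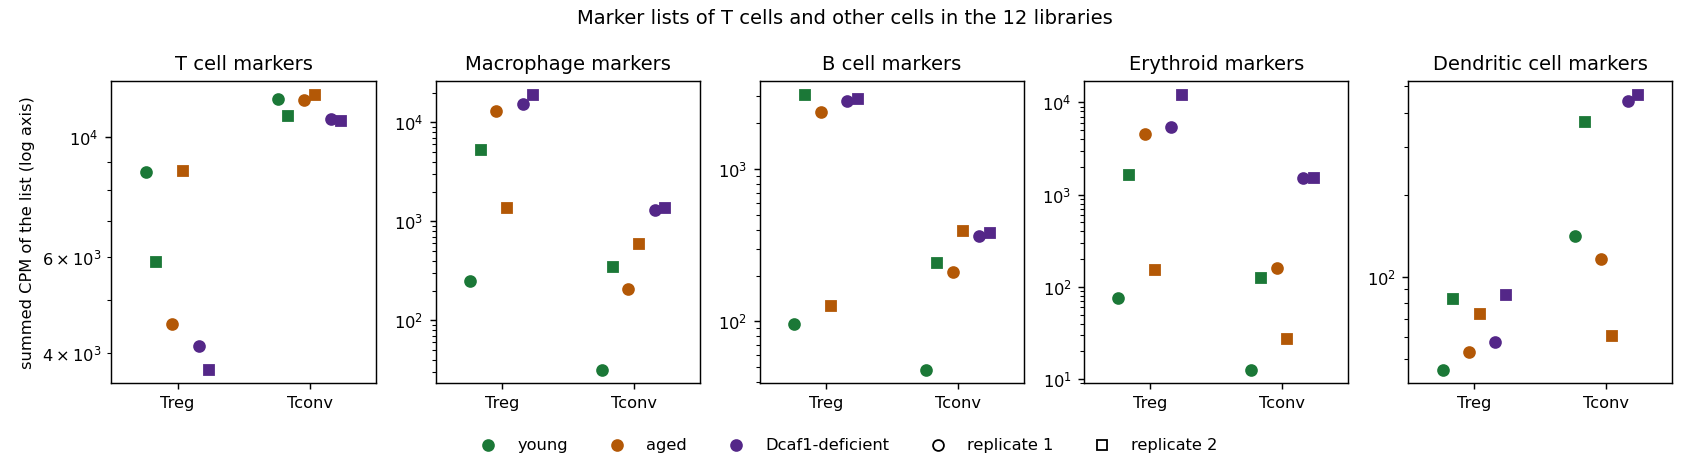
Summed CPM (log axis) of 5 marker lists in each library, Treg left and Tconv right, colours for condition and symbols for replicate. T cell marker sums of 3719 to 8668 CPM in Treg lie below the 10740 to 11988 CPM in Tconv, while macrophage, B cell and erythroid sums reach far higher in 4 of the 6 Treg libraries.

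For this reason the calls of each gene group below are also given with macrophage and B cell terms in the model and with an erythroid term. Each term was the mean log2 level of that marker list in a library. Members of those lists are therefore tested there against a level they helped to make. The macrophage and B cell terms left 106 higher and 187 lower calls (1.12% and 1.97% of tested genes), and the erythroid term 322 and 339 (3.39% and 3.57%). Scaling to T cell genes moved the median of all genes to a log2 difference of 0.987 and turned the split of calls to 7776 higher and 77 lower, so that 99% of calls were higher, against 51.7% in the additive test and 36.2% with macrophage and B cell terms. Since 81.9% of all genes were then called higher, lists are given under that scaling only as a median relative to the median of all genes. The scaling moves whole libraries, so this relative median stays near its additive value and is no separate check. For Treg identity genes it was 2.13 in the additive test and 2.05 under the scaling. Of the lists, none had over 6 members called higher or 5 lower with the tag term. None had over 2 higher or 1 lower without the Treg libraries high in macrophage transcripts and the Dcaf1-deficient Tconv. Young Treg 1 and aged Treg 2 were then the only Treg, and the direction was read in young and aged mice alone. Called under each omission of 1 library, under both sets of terms and under T cell scaling were 72 higher and 49 lower genes. T cell scaling kept all 1212 higher calls but only 77 of the 1134 lower ones. It thus set a hurdle for the lower genes only, and the counts of 72 and 49 do not rest on a like test. Of 81 called genes named by rule, 4 kept their call and direction under all 30 alternatives: Il2ra, Cish, Themis and Tdpoz4.

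The promoters of Cish and Foxp3 are shown because both genes were higher in Treg under all 3 conditions and both windows hold the STAT5 palindrome TTCNNNGAA, in capitals, in 250 bases before to 50 after a RefSeq start (GRCm38.p6, the assembly of mm10).
Cish promoter, chr9:107296409-107296708, plus strand: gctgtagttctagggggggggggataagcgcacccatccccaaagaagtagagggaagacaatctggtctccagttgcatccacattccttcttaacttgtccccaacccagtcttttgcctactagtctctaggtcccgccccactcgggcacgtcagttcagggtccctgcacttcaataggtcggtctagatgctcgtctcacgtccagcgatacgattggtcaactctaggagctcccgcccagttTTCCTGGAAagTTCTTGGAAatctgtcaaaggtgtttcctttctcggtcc
Foxp3 promoter, chrX:7580233-7580532, plus strand: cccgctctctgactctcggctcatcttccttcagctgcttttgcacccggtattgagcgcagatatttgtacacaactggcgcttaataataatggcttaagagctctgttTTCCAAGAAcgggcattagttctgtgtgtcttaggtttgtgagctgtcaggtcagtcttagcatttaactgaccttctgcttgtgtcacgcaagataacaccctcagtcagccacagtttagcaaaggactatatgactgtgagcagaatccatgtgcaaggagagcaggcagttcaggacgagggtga

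In Cish the copies TTCCTGGAA and TTCTTGGAA begin at bases +1 and +12, where +1 is the start base, and in Foxp3 the copy TTCCAAGAA begins at -139. The motif equals its own reverse complement, so one search covers both strands. Another RefSeq promoter of Foxp3 (chrX:7579426-7579725) and that of Il2ra (chr2:11642542-11642841) held no match in this window; Socs2 was not matched to a promoter. Among genes with a promoter in the table, 98 of 942 called higher (10.4%), 66 of 889 called lower (7.42%) and 620 of 7461 tested (8.31%) held at least 1 copy in some promoter, and 41 tested genes (0.55%) held at least 2 as Cish did. A match describes letters and no binding.

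The fold changes of the Treg markers were positive in all 3 conditions. Il2ra (chromosome 2, 11642807 to 11693193, mm10) was at 1337 and 887 CPM in the young Treg libraries, 763 and 969 in those of aged mice and 774 and 576 in those labelled Dcaf1-deficient, against 31.8 and 63.2, 43.1 and 29.7, and 49.2 and 48.7 CPM in the Tconv of those conditions. Treg averaged 884 ± 259 CPM and Tconv 44.3 ± 12.4 CPM (SD, n = 6 each), a log2 fold change of 4.30 (SE 0.25, edgeR adjusted p 4e-05). The lowest Treg library stood above the highest Tconv library, but CD25 was the sorting marker, so this level checks the sort and is no finding.

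Foxp3 (chromosome X, 7573644 to 7595245) was at 1428 and 812 CPM in the young Treg libraries, 746 and 1986 in those of aged mice and 625 and 535 in those labelled Dcaf1-deficient. Young Tconv had 47.7 and 78.4 CPM, aged Tconv 334 and 675, and Tconv labelled Dcaf1-deficient 80.8 and 75.7. Aged Tconv 2 thus overlapped the Treg range, and both aged Tconv libraries stood above the other 4. The log2 fold change over conditions was 2.83 (SE 0.49, edgeR adjusted p 0.0058), with 4.15 in young, 1.44 in aged and 2.89 in Dcaf1-deficient mice; these did not differ past the threshold (interaction, edgeR adjusted p 0.721).

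Ikzf2, encoding the Treg factor Helios, was also high in aged Tconv. It spanned 435 to 1942 CPM in Treg with a median of 663, against 89.1 to 773 CPM in Tconv with a median of 123 (log2 fold change 1.99, SE 0.43, edgeR adjusted p 0.0122). Aged Tconv, at 673 and 773 CPM, held the 2 highest Tconv values and overlapped the Treg. Aged Treg 1, at 655 CPM, lay below both, so the log2 difference of 0.84 in aged mice rested on aged Treg 2 (1942 CPM). Leaving out the young libraries ended the call of Ikzf2. A tag term or leaving out the libraries labelled Dcaf1-deficient ended the calls of both Foxp3 and Ikzf2. Socs2, a feedback inhibitor of cytokine receptors, spanned 64.3 to 104 CPM in Treg with a median of 86.4, against 6.62 to 24.1 CPM in Tconv with a median of 16.4, with no overlap (2.44, SE 0.29, edgeR adjusted p 0.00113). Its call was not kept with macrophage and B cell terms.

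**Figure D3:**
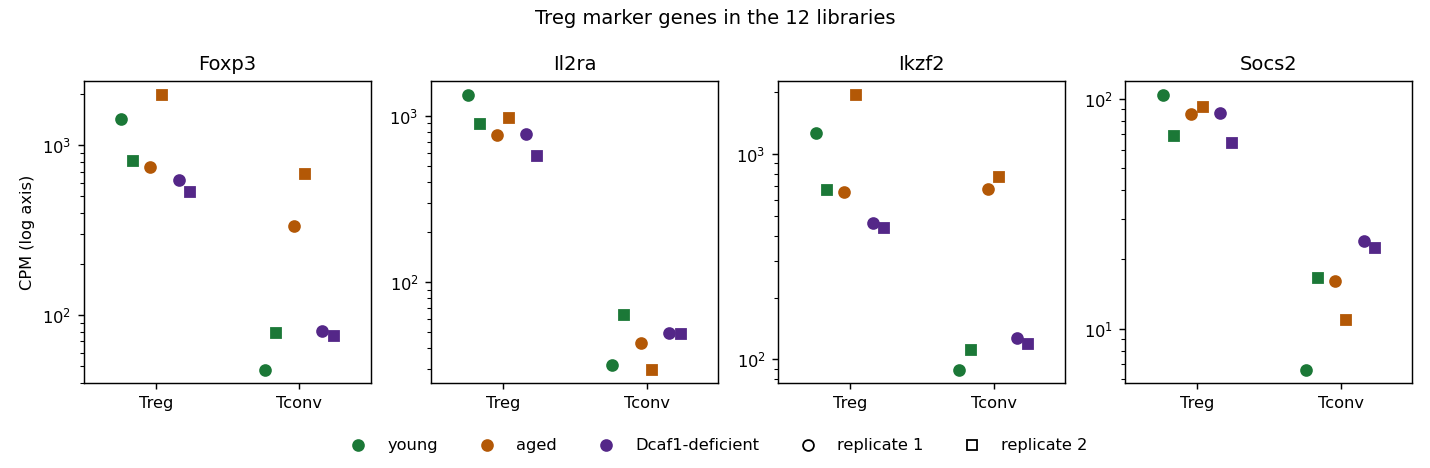
CPM (log axis) of Foxp3, Il2ra, Ikzf2 and Socs2 in the 12 libraries, Treg left and Tconv right, colours for condition and symbols for replicate. Il2ra and Socs2 separate the cell types in all conditions, while Foxp3 (334 and 675 CPM) and Ikzf2 (673 and 773 CPM) are high in both aged Tconv libraries.

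Of 13 tested Treg identity genes 12 were called higher in Treg and none lower, beside 12.8% of all genes, with a median log2 fold change of 2.12. The 12 include Il2ra, whose call follows from the sort. Only Nt5e, the ectoenzyme CD73, did not pass (0.52, edgeR adjusted p 0.454). With macrophage and B cell terms 9 were called and with the erythroid term 11, with medians of 2.77 and 2.45. The tag term left 6 (median 2.35). Leaving out the Treg libraries high in macrophage transcripts and the Dcaf1-deficient Tconv left 1 (median 2.68), with young Treg 1 and aged Treg 2 the only Treg in that fit. Under T cell scaling the list's median lay 2.05 above that of all genes. Of the list, Il2rb, Tnfrsf9, Nrp1, Lrrc32 and Izumo1r were not analysed here.

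Itgae, the integrin chain CD103 that binds E-cadherin, was at 167 and 146 CPM in the young Treg libraries, 549 and 2343 in those of aged mice and 461 and 305 in those labelled Dcaf1-deficient, against 12.5 to 134 CPM in Tconv. Every Treg library lay above every Tconv library, and aged Treg 2 was highest (log2 fold change 3.14, SE 0.37, edgeR adjusted p 0.00113). Ikzf4, encoding the factor Eos, spanned 75.1 to 264 CPM in Treg with a median of 102, against 13.7 to 48.4 CPM in Tconv with a median of 19.1 (2.52, SE 0.32, edgeR adjusted p 0.00166). Entpd1, the ectoenzyme CD39 that macrophages and B cells also express, spanned 67.3 to 206 CPM in Treg and 10.7 to 107 CPM in Tconv, and its call was lost with macrophage and B cell terms.

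Ctla4, the inhibitory receptor that competes for CD80 and CD86, was called narrowly (1.44, SE 0.44, edgeR adjusted p 0.0406). It spanned 372 to 2327 CPM in Treg and 120 to 1673 CPM in Tconv, with both aged Tconv libraries at 1078 and 1673 CPM and the other 4 Tconv libraries at 120 to 168 CPM. Leaving out any 1 library except aged Treg 1 or aged Tconv 2 ended that call, and over all 12 single omissions the edgeR adjusted p ran from 0.00516 to 0.0978. Its log2 difference was 2.44 in young, 0.11 in aged and 1.73 in Dcaf1-deficient mice.

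Of 14 IL-2 and STAT5 genes tested 4 were called higher and 2 lower, with a median log2 fold change of -0.10, and 8 did not pass. These are 28.6% and 14.3%, beside 12.8% and 11.9% of all genes, so the lower share lay near that of all genes. The higher calls include Il2ra, which encodes the sorting marker CD25, so that call follows from the sort. The ligand Il2 was lower in Treg (-1.23, edgeR adjusted p 0.023), at 0.377 to 1.44 CPM in Treg and 1.19 to 2.84 CPM in Tconv, and the kinase Jak1 was lower too (-0.54, edgeR adjusted p 0.00798). The transcription factors Stat5a and Stat5b had log2 fold changes of 0.33 and -0.15, the shared receptor chain Il2rg had -0.13 and the feedback inhibitor Socs3 -0.48, none of which passed.

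The 4 genes higher in Treg were Il2ra itself, the feedback inhibitors Cish and Socs2, and Myc, a growth regulator that STAT5 and many other inputs control. Cish was at 372 and 241 CPM in the young Treg libraries, 295 and 654 in those of aged mice and 297 and 245 in those labelled Dcaf1-deficient, against 39.6 to 103 CPM in Tconv with a median of 90.1. The cell types did not overlap, and the log2 fold change of 2.26 (SE 0.26, edgeR adjusted p 0.00113) was 2.94 in young, 2.29 in aged and 1.57 in Dcaf1-deficient mice. Myc spanned 84.0 to 248 CPM in Treg and 56.8 to 116 CPM in Tconv (0.85, SE 0.10, edgeR adjusted p 0.00121); within each condition both Treg libraries lay above both Tconv libraries. With macrophage and B cell terms 3 members of the list were called higher and none lower, and with the erythroid term 4 and 1 (medians 0.44 and 0.25).

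In the TNF and TNF receptor family, 5 of 14 members were called higher and 2 lower, with a median of 0.01. These are 35.7% and 14.3%, beside 12.8% and 11.9% of all genes, so the lower share lay near that of all genes. Of the receptors, Tnfrsf8 (CD30), Tnfrsf4 (OX40), Tnfrsf18 (GITR) and Tnfrsf1b, the TNF receptor expressed by Treg, were higher in Treg, with the ligand gene Lta beside them. The receptors Tnfrsf1a (-0.02), Tnfrsf25 (-0.14) and Cd27 (-0.08) did not pass. Tnfrsf8 spanned 12.2 to 33.5 CPM in Treg with a median of 23.9, against 0.704 to 10.2 CPM in Tconv with a median of 1.99 (log2 fold change 3.05, SE 0.40, edgeR adjusted p 0.00179). Aged Tconv, at 8.11 and 10.2 CPM, were again the highest Tconv. Tnfrsf18, a costimulatory receptor, spanned 215 to 822 CPM in Treg with a median of 262, against 76.5 to 335 CPM in Tconv with a median of 98.7 (1.36, SE 0.26, edgeR adjusted p 0.00867). Tnfrsf4 differed by 2.12 (edgeR adjusted p 0.0112), at 222 to 1233 CPM in Treg and 29.99 to 573 CPM in Tconv.

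The ligand lower in Treg was Cd40lg, with which helper T cells activate B cells and dendritic cells (chromosome X, 57212143 to 57224042). It was at 50.1 and 37.8 CPM in the young Treg libraries, 18.8 and 14.5 in those of aged mice and 17.7 and 15.8 in those labelled Dcaf1-deficient, against 240 and 239, 162 and 123, and 209 and 203 CPM in the Tconv of those conditions. No Treg library reached the lowest Tconv library, and the log2 fold change of -3.05 (SE 0.20, edgeR adjusted p 7.32e-05) was -2.45 in young, -3.10 in aged and -3.62 in Dcaf1-deficient mice. Tnfsf8, the ligand of CD30, was lower as well (-0.91, edgeR adjusted p 0.0219). Lta, encoding lymphotoxin alpha, spanned 40.8 to 121 CPM in Treg and 25.1 to 40.2 CPM in Tconv, without overlap (1.29, SE 0.20, edgeR adjusted p 0.0039). Macrophage and B cell terms left 4 members called higher and 1 lower, and with the erythroid term 5 and 1 (medians 0.19 and 0.28).

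Effector Treg genes were higher in part: 7 of 16 were called (43.8%, beside 12.8% of all genes) and none lower, with a median log2 fold change of 0.69. Il1rl1, the receptor ST2 for interleukin-33, spanned 32.3 to 260 CPM in Treg with a median of 99.2, against 9.01 to 32.2 CPM in Tconv with a median of 12.6 (2.46, SE 0.41, edgeR adjusted p 0.00488). Klrg1, a cadherin-binding receptor of differentiated lymphocytes, spanned 31.8 to 346 CPM in Treg and 5.26 to 46.3 CPM in Tconv (2.39, edgeR adjusted p 0.00474). At both genes the 2 young Treg libraries were the lowest of the 6 Treg. Irf4, a transcription factor of effector Treg, spanned 141 to 303 CPM in Treg and 42.7 to 178 CPM in Tconv (1.34, SE 0.21, edgeR adjusted p 0.00433), and Tgfb1, the cytokine TGF-beta 1, 170 to 268 CPM in Treg and 145 to 174 CPM in Tconv (0.53, SE 0.08, edgeR adjusted p 0.0041). Il10 (0.76), Maf (0.66) and Lag3 (-0.09) did not pass. The calls of Klrg1 and Tgfb1 were lost with macrophage and B cell terms, under which 2 members were called, Il1rl1 and Irf4. With the erythroid term 7 were called. The medians were then 1.16 and 1.03, so the fewer calls did not go with a smaller median difference.

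Of 22 interferon-inducible genes and GTPases, 6 were called higher (27.3%, beside 12.8% of all genes) and none lower (median 0.30). Guanylate-binding proteins led them. Gbp3 spanned 161 to 433 CPM in Treg with a median of 199, against 27.9 to 127 CPM in Tconv with a median of 58.8 (log2 fold change 2.00, SE 0.27, edgeR adjusted p 0.00197). Gbp5 spanned 149 to 345 CPM in Treg and 44.3 to 158 CPM in Tconv (1.31, SE 0.21, edgeR adjusted p 0.0048). Gbp2b spanned 4.96 to 58.9 CPM in Treg and 0.855 to 3.18 CPM in Tconv (3.56, SE 0.65, edgeR adjusted p 0.00677), and its call was lost with macrophage and B cell terms. These genes lie side by side on chromosome 3 and share sequence, so each one's share of the reads is uncertain. Gbp4, Gbp9, Irf1, Irf7, Ifit1 and Mx1 had differences between -0.22 and 0.12 and did not pass. Macrophage and B cell terms left 2 members called higher, the erythroid term 6 (medians 0.19 and 0.42).

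Of 12 tested members of a Tconv list 8 were called lower in Treg, beside 11.9% of all genes, and none higher (median -1.83). Like the other lists, it was chosen with earlier results of these data known, so this share is no independent check. Themis, an adaptor of T cell receptor signalling in developing T cells, was at 58.3 and 41.6 CPM in the young Treg libraries, 34.2 and 35.8 in those of aged mice and 35.5 and 35.1 in those labelled Dcaf1-deficient. Young Tconv had 201 and 201 CPM, aged Tconv 151 and 121, and Tconv labelled Dcaf1-deficient 179 and 197. The cell types stood clear of each other in all conditions, with a log2 fold change of -2.13 (SE 0.11, edgeR adjusted p 2.95e-05).

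Ntrk3, encoding a neurotrophin receptor kinase (chromosome 7, 78175959 to 78738012), spanned 1.09 to 5.15 CPM in Treg with a median of 2.42, against 18.3 to 156 CPM in Tconv with a median of 35.2 (-4.07, SE 0.36, edgeR adjusted p 0.000293). Aged Tconv held its highest values, 62.8 and 156 CPM. Tgfbr3, a coreceptor for TGF-beta, spanned 5.71 to 23.9 CPM in Treg and 46.6 to 173 CPM in Tconv (-2.71, SE 0.25, edgeR adjusted p 0.000333), and Pde3b, a cyclic nucleotide phosphodiesterase, 9.61 to 37.7 CPM in Treg and 80.1 to 213 CPM in Tconv (-2.23, edgeR adjusted p 0.0041). Bach2 and Rgs10 did not pass, with 0.21 and 0.05. With macrophage and B cell terms 5 members were called lower and with the erythroid term 6.

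Naive T cell genes were lower in smaller number, 3 of 13 (23.1%, beside 11.9% of all genes, median -0.74). Tcf7, encoding TCF-1, was at 746 and 517 CPM in the young Treg libraries, 235 and 126 in those of aged mice and 212 and 247 in those labelled Dcaf1-deficient. Young Tconv had 2108 and 1958 CPM, aged Tconv 1771 and 580, and Tconv labelled Dcaf1-deficient 1666 and 1628. Aged Tconv 2 was the only Tconv library within the Treg range (log2 fold change -2.41, SE 0.32, edgeR adjusted p 0.0018). Its partner Lef1 spanned 49.7 to 137 CPM in Treg and 41.9 to 408 CPM in Tconv (-1.61, SE 0.32, edgeR adjusted p 0.00955), with aged Tconv at 134 and 41.9 CPM no higher than the highest Treg library. Foxo1 and Foxp1 did not pass (-0.25 and -0.10). Tcf7 lost its call with macrophage and B cell terms, which left 1 member called lower, and the erythroid term left 3. The medians were then -1.29 and -1.01, so the fewer calls did not go with a smaller median difference.

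Proximal T cell receptor signalling genes were lower in Treg at 12 of 19 members (63.2%, beside 11.9% of all genes, median -0.82) and higher at none. Cd4 spanned 549 to 1296 CPM in Treg with a median of 724, against 1675 to 2542 CPM in Tconv with a median of 1872 (log2 fold change -1.24, SE 0.20, edgeR adjusted p 0.0041). The kinase Lck differed by -0.88 (edgeR adjusted p 0.0166), and was at 544 to 1382 CPM in Treg and 1403 to 1684 CPM in Tconv. The list's sum was 5617 to 10841 CPM in Treg and 11786 to 15830 CPM in Tconv, so it moved with the T cell markers given above. Macrophage and B cell terms left 3 calls, all lower, as did the erythroid term (medians -0.52 and -0.45). Under T cell scaling the list's median lay below that of all genes, with a difference of -0.89.

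Genes of other lineages were not all higher in Treg. Of 7 dendritic cell genes 3 were called lower in Treg (42.9%, beside 11.9% of all genes) and none higher, with sums of 45.5 to 85.7 CPM in Treg and 60.4 to 466 CPM in Tconv. Siglech, a lectin of plasmacytoid dendritic cells, was at 0.895 and 7.66 CPM in the young Treg libraries, 4.05 and 0.736 in those of aged mice and 3.97 and 4.07 in those labelled Dcaf1-deficient. Young Tconv had 58.2 and 155 CPM, aged Tconv 24.8 and 8.84, and Tconv labelled Dcaf1-deficient 217 and 223. The cell types did not overlap (log2 fold change -4.44, SE 0.76, edgeR adjusted p 0.00549). Clec4a4, a lectin of dendritic cells, spanned 0.0460 to 2.43 CPM in Treg and 1.71 to 18.2 CPM in Tconv (-3.81, edgeR adjusted p 0.00772), and Ccr9, a gut-homing receptor that these cells share with T cells, 9.62 to 38.8 CPM in Treg and 15.5 to 79.5 CPM in Tconv (-1.34, edgeR adjusted p 0.0159). Under either set of other-cell terms 3 members were called lower, but Ccr9 was not among them.

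Among 5 NK and CD8 genes, Klrd1 (CD94) was lower, at 1.04 to 10.8 CPM in Treg and 11.3 to 69.3 CPM in Tconv (-2.58, SE 0.50, edgeR adjusted p 0.00868). Ncr1, the activating receptor NKp46 of NK cells, was higher (2.76, SE 0.88, edgeR adjusted p 0.0451), at 0.989 to 21.4 CPM in Treg and 0 to 5.88 CPM in Tconv. Its call was lost with each single omission other than young Treg 1, aged Treg 2, young Tconv 2 or aged Tconv 2, and its value turned to -0.64 with macrophage and B cell terms. Klrb1c (-1.03), Klra8 (2.12) and Klrk1 (-0.14) did not pass. With either set of other-cell terms Klrd1 was the one call of the list. The dendritic cell genes called were thus lower in Treg, unlike the macrophage and B cell genes, and the NK and CD8 list had no single direction; the part of these transcripts in other differences was not tested.

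**Figure D4:**
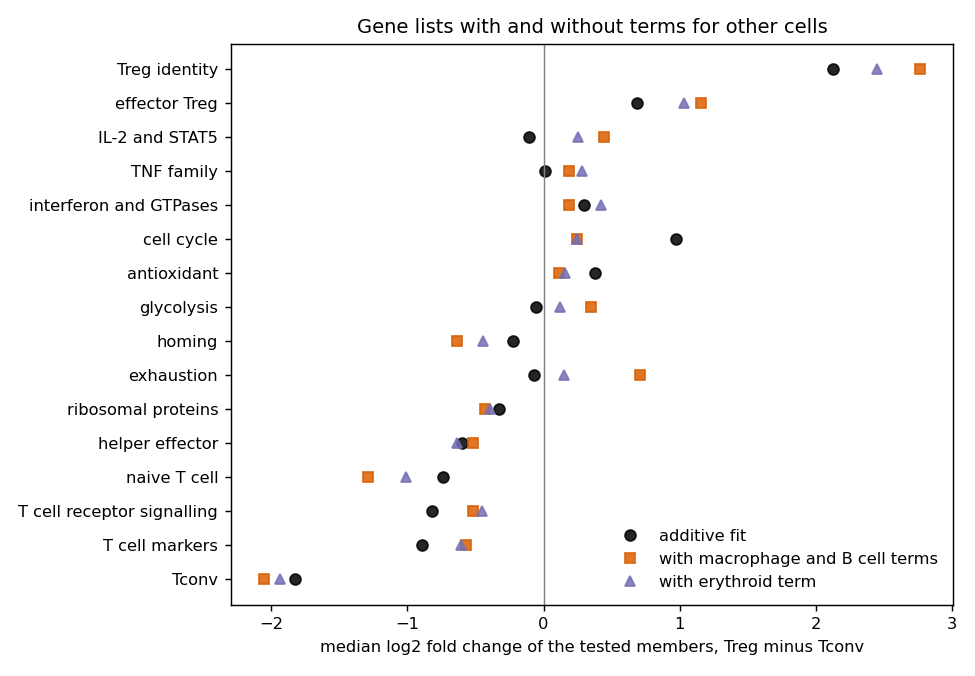
Median log2 fold change, Treg minus Tconv, of the tested members of 16 gene lists, in the additive test (black), with macrophage and B cell terms (orange) and with the erythroid term (violet). Treg identity genes lie highest (2.12, 2.77 and 2.45) and the Tconv list lowest (-1.83, -2.05 and -1.94) in all 3 fits.

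Of 20 cell cycle genes 5 were called higher in Treg, 25% beside 12.8% of all genes, and none lower; 15 did not pass (median 0.97). Tk1, the thymidine kinase of S phase, spanned 24.4 to 82.6 CPM in Treg with a median of 60.0, against 7.46 to 41.3 CPM in Tconv with a median of 25.3 (log2 fold change 1.36, SE 0.23, edgeR adjusted p 0.00526). Bub1b, a mitotic checkpoint kinase, differed by 1.12. The sums were 1022 and 1314 CPM in the young Treg libraries, 2756 and 1497 in those of aged mice and 2989 and 2617 in those labelled Dcaf1-deficient, against 838 to 1854 CPM in Tconv. They were thus high in 3 of the 4 Treg libraries with the most macrophage and erythroid transcripts, and Tk1 was the one member still called with macrophage and B cell terms (median 0.25). The erythroid term also left 1 call (median 0.25) and the tag term 0.

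Of 21 antioxidant genes 5 were called higher and 1 lower (23.8% and 4.76%, beside 12.8% and 11.9% of all genes, median 0.38). Prdx2, a peroxiredoxin abundant in red cells as well, spanned 143 to 241 CPM in Treg and 95.4 to 160 CPM in Tconv (0.55, SE 0.09, edgeR adjusted p 0.00536). Hmox1, the haem-degrading enzyme of red pulp macrophages, had a lowest, median and highest level of 30.2, 1526 and 3065 CPM in Treg and 5.12, 56.4 and 217 CPM in Tconv, and its call was lost without young Treg 2 and with each set of other-cell terms. Since Hmox1 is in the list behind the macrophage term, its loss under that term was largely built in. Of 5 genes of the phagocyte NADPH oxidase 2 were called higher (40%, beside 12.8% of all genes). Among them Ncf4, a cytosolic subunit, spanned 139 to 196 CPM in Treg and 73.6 to 139 CPM in Tconv (0.59, SE 0.12, edgeR adjusted p 0.00935). None of the 5 was called with macrophage and B cell terms, and 1 was with the erythroid term. Glycolytic genes gave 0 calls of 15 (median -0.05). Other-cell terms also gave 0 glycolytic calls, and of the antioxidant genes macrophage and B cell terms left 1 higher and 1 lower and the erythroid term 1 and 0. Of 14 homing genes 2 were higher and 2 lower (14.3% each way), of 12 helper effector genes 1 and 1 (8.33% each way) and of 12 exhaustion genes 2 and 0 (16.7% higher), those being Entpd1 and Ctla4. These shares lay near the 12.8% higher and 11.9% lower of all genes. Under macrophage and B cell terms the homing list had 1 and 0, the helper effector list 0 and 1 and the exhaustion list 1 and 0, and with the erythroid term 2 and 0, 1 and 1, and 2 and 0. Cd44, the hyaluronan receptor of activated T cells and many other leukocytes, was higher in Treg (0.82, SE 0.12, edgeR adjusted p 0.00274). Its call was lost with macrophage and B cell terms.

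Cytosolic ribosomal protein genes were slightly lower in Treg, with 35 of 59 called lower and 3 higher (59.3% and 5.08%, beside 11.9% and 12.8% of all genes, median -0.33). Rpl35a was at 543 to 1066 CPM in Treg with a median of 644, against 646 to 1360 CPM in Tconv with a median of 1050 (log2 fold change -0.47, SE 0.09, edgeR adjusted p 0.00897). The sums were highest in the young of both cell types, at 85221 and 77779 CPM in Treg and 97082 and 98528 CPM in Tconv. No member was called with macrophage and B cell terms, and the erythroid term left 1 higher and 14 lower (medians -0.43 and -0.39). Under T cell scaling the list's median was itself positive (0.67) but lay below that of all genes, with a difference of -0.32. Processed pseudogenes copy many of these genes, so single members are uncertain.

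Beyond the lists, the largest increases with no overlap between cell types were named by rule. Cntn1, a neural cell adhesion protein, spanned 2.68 to 29.9 CPM in Treg with a median of 14.3, against 0.0939 to 1.122 CPM in Tconv with a median of 0.458 (log2 fold change 4.88, SE 0.54, edgeR adjusted p 0.000967). Dnah7a, an axonemal dynein heavy chain (chromosome 1, 53397006 to 53706784), was at 72.2 and 49.8 CPM in the young Treg libraries, 17.5 and 19.7 in those of aged mice and 12.4 and 11.04 in those labelled Dcaf1-deficient, against 0.488 to 2.00 CPM in Tconv (4.57, SE 0.40, edgeR adjusted p 0.000292). Young Treg held its highest values. Prkar1b, a regulatory subunit of protein kinase A, differed by 4.31, Stra6, a receptor for the retinol carrier, by 3.97, Tdpoz4 by 4.08 and Fam184b by 3.31. Tdpoz4 belongs to a family of near copies, so its counts are uncertain; Fam184b lost its call with macrophage and B cell terms.

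Large decreases without overlap, named by the same rule, were those of Siglech (-4.44), Ptgs2 (-4.17), Ntrk3 (-4.07), Cnga1 (-3.90), Klri1 (-3.28), Cpne7 (-3.17), Cd40lg (-3.05), Hs3st3b1 (-2.99) and Tmie (-2.94). Ptgs2, the inducible cyclooxygenase COX-2, was at 0.283 to 2.94 CPM in Treg with a median of 0.687, against 3.75 to 41.4 CPM in Tconv with a median of 20.7 (SE 0.62, edgeR adjusted p 0.00325). Siglech, Ptgs2, Klri1 and Clec4a4 were each lowest, among Tconv, in aged Tconv 2 and highest in young Tconv 2 or the Dcaf1-deficient Tconv, as was the dendritic cell sum. Other genes outside the dendritic cell list had this layout too, among them Hs3st3b1, Tgfbr3 and Thy1. Young Tconv 1 and 2 lay apart at Siglech (58.2 and 155 CPM), Ptgs2 (10.2 and 41.4), Klri1 (5.07 and 15.5) and Clec4a4 (4.60 and 15.6). They lay close at Hs3st3b1 (70.3 and 73.7 CPM), Tgfbr3 (161 and 173) and Thy1 (1127.2 and 1110.5). The source of these transcripts was not tested. Not all of the large decreases were lowest, among Tconv, in aged Tconv 2. Tmie, a mechanotransduction protein of the ear, was lowest, among Tconv, in the Dcaf1-deficient libraries. It was at 2.31 to 11.6 CPM in Treg and 26.04 to 80.8 CPM in Tconv (SE 0.23, edgeR adjusted p 0.00019).

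**Figure D5:**
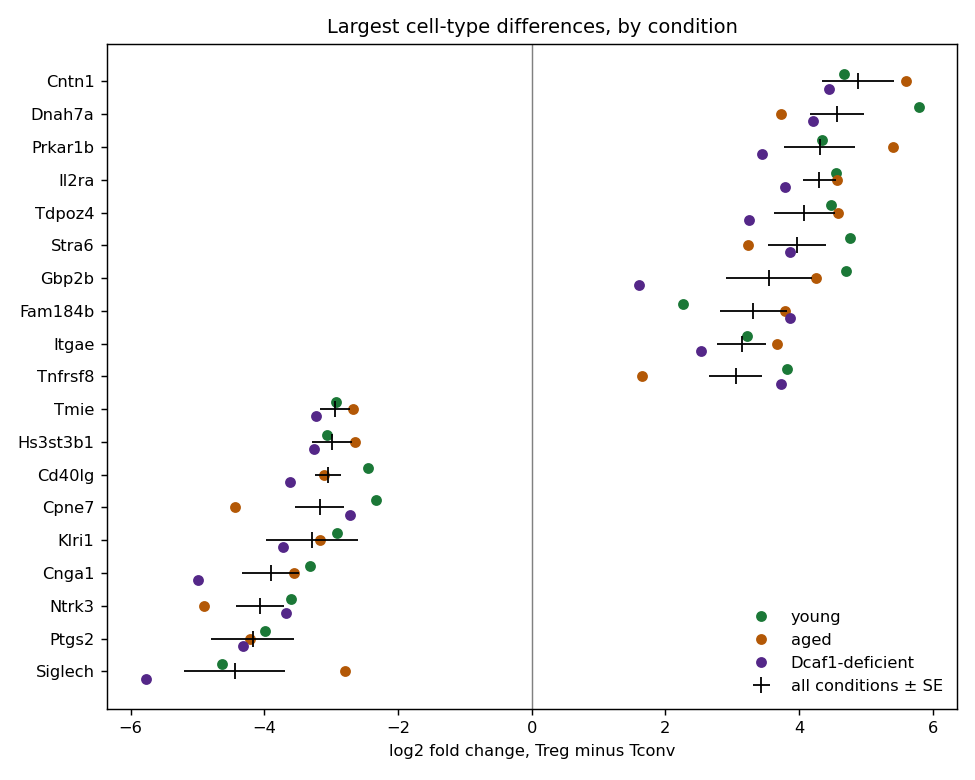
Log2 fold change, Treg minus Tconv, of the 10 largest increases and 9 of the largest decreases, with points for young, aged and Dcaf1-deficient mice and a black mark for the additive fit over conditions with its SE. All 19 genes lie on one side of 0 in all 3 conditions, as the rule that named them required.

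Whether the cell-type difference itself differed between conditions was tested as an interaction. EdgeR called 0 of 9495 genes (0% of tested), with 569 at an unadjusted p under 0.05 and a smallest adjusted p of 0.156; limma also gave 0, and the DESeq2 likelihood ratio test 144. Without aged Tconv 1 edgeR called 76, without aged Treg 2 it called 1, and without young Treg 2 and aged Treg 1 it called 47. The gene nearest the threshold was Ptpn11, the phosphatase SHP-2, at 188 to 239 CPM in all 6 Treg libraries, against 658 and 661 CPM in aged Tconv and 223 to 233 CPM in the other Tconv. Its log2 difference was -0.12 in young, -1.61 in aged and -0.26 in Dcaf1-deficient mice (interaction, edgeR adjusted p 0.156). Eomes, a transcription factor of cytotoxic and memory T cells, was at 12.1 to 24.2 CPM in Treg, against 199 and 445 CPM in aged Tconv and 11.9 to 16.3 CPM in the other Tconv (interaction, edgeR adjusted p 0.193). Aged Tconv stood apart at both genes, as at Foxp3, Ikzf2 and Ctla4, but none of these interactions passed.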

How the data were processed

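Estimated counts for each gene were deposited by the authors; the submitters' processing notes name Salmon 0.9.1 and mm10, and the file's own name and headers tximport; the transcript annotation is not given in the sources used here. The authors also deposited log2 values per gene, for which the notes name DESeq2 and no transform. Of 13404 rows 11486 had a count and 18 carry names turned into dates.

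Estimated counts were rounded and tested in R 4.3.3 with edgeR 4.0.16 (glmQLFit, glmQLFTest), TMM scaling and filterByExpr by the 6 groups, which kept 9495 genes and removed 1991. Cell type and condition were additive, with 8 residual degrees of freedom; the interaction used 6 group means, with 6. P-values were adjusted by Benjamini-Hochberg over all genes tested, threshold 0.05. SE values are those implied by the F statistic. Depth was 18358477 to 26852448 counts per library, and 3 counts served as the floor.

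Named genes are the 10 genes that were higher by most and the 10 lower by most, if called, at 4 CPM or more on average and without overlap of the cell types, up to 4 called members per list by adjusted p, the 4 genes nearest the interaction threshold, and Foxp3, Il2ra, Ikzf2, Socs2 and Dcaf1; some genes the rule names are not reported here. Other list members named (such as Tnfrsf4, Il2, Jak1, Lck, Pde3b, Tnfsf8 and Bub1b) were chosen after their values were seen. The members and the 23 lists were chosen with earlier results of these data known. Alternatives were RLE size factors, no filter, DESeq2 1.42.0, limma 3.58.1 on the deposited log2 values, a replicate block, tag, other-cell and erythroid terms, and omitted libraries. Added after seeing the data were T cell scaling, an Xist term and the omission of Treg libraries high in macrophage transcripts together with the Dcaf1-deficient Tconv. Positions are from GENCODE M21. The test was checked on simulated data.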

Additional observations from a re-analysis of the deposited data

Results flagged for a closer look

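Within each cell type of 6 libraries, the gap of the highest or lowest library to its neighbour, as a share of the range on the log2 scale, was set against Dixon's limit for 6 values. It was passed in 17 of 218 groups checked (7.80%). The limit is set for about 1 in 20 among independent groups of like libraries. These groups mix 3 conditions, and lists and named genes share members, so that rate does not apply here. Aged Treg 2 was the highest Treg library for Tnfrsf18 (gap 0.741), Gbp5 (0.698), Irgm2 (0.677) and Ncf4 (0.738), and for the summed TNF family (0.743), exhaustion (0.677) and interferon (0.691) lists, and the lowest for Tgfbr3 (0.734). Young Treg 1 was lowest for Irf4 (0.647) and highest for Themis (0.633). Among Tconv, aged Tconv 2 was lowest for Tcf7 (0.8) and Hs3st3b1 (0.645) and highest for Cd4 (0.656) and the glycolysis sum (0.69). Young Tconv 2 was highest for Stra6 (0.859, at 0.880 CPM), aged Tconv 1 for the IL-2 and STAT5 sum (0.706), and young Tconv 1 was lowest for the B cell sum (0.702, at 48.1 CPM).

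At 3 of the 86 named genes the libraries of one condition lay on the opposite side from those of another. All 3 were among the 4 genes named because they lay nearest the interaction threshold. How many of all genes tested had such a layout was not counted. Netrin gene Ntn1 differed between Treg and Tconv by 1.45 in young and 0.68 in Dcaf1-deficient mice but by -1.80 in aged mice on the log2 scale. Synpo, an actin-binding protein gene, differed by 1.30 in young, -2.96 in aged and -0.33 in Dcaf1-deficient mice. Eomes differed by 0.49 in Dcaf1-deficient, -0.22 in young and -4.05 in aged mice. None of the 3 passed the interaction test (edgeR adjusted p 0.165, 0.193 and 0.193), so these differences between conditions were not shown by a test.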

How the results depend on the processing

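The counts of 1212 higher and 1134 lower genes stayed within 1.5 times under RLE size factors (1284 and 1022), no low-count filter (1209 and 856), DESeq2 (1774 and 1361), limma (1049 and 928), the mean of 3 differences (1032 and 1001), an Xist term (991 and 1035) and without aged libraries (1610 and 1491). They moved to 442 and 428 with no condition term, 93 and 72 with a tag term, 106 and 187 with macrophage and B cell terms, 322 and 339 with the erythroid term, 770 and 212 at a log2 fold change of at least 1, 545 and 429 without young Treg 2 and aged Treg 1, 1894 and 1782 without both L3 libraries, 493 and 261 without young libraries, 22 and 17 without Dcaf1-deficient libraries, 7776 and 77 under T cell scaling, and 10 and 2 without the Treg libraries high in macrophage transcripts and the Dcaf1-deficient Tconv. Fewer libraries entered the fits with omissions; in the others the cause was not tested. Omitting 1 library gave 493 to 1604 higher, 440 to 1523 lower and 0 to 76 interaction calls; the interaction had 144 with the DESeq2 likelihood ratio test, 3 with the replicate block and 47 without young Treg 2 and aged Treg 1. The replicate block gave 1154 higher and 1041 lower; same-numbered deviations correlated at 0.677 in young, 0.271 in aged and 0.0414 in Dcaf1-deficient mice, so the numbers were not taken to pair the samples.

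Over 86 named genes, 2045 values kept their direction and side of the threshold, 490 lost their call, 9 gained one and 33 turned sign. Under T cell scaling these were Itga4 (0.20), Prdx6 (0.49), Thy1 (0.00038), Rpl22l1 (0.46), Rps28 (0.46), Rpl35a (0.54), Ptpn11 (0.33), Synpo (0.41) and Vprbp (0.88); that scaling raised these 9 genes by 0.941 to 1.02, about as much as the median of all genes, so their turns follow from the shift. With macrophage and B cell terms they were Cd79a (-0.013), Ms4a1 (-0.16), Alas2 (-0.29), Hba-a2 (-1.35), Hbb-bt (-0.81), Prtn3 (-1.70), Ncr1 (-0.64), Ptpn11 (0.039), Synpo (1.38) and Eomes (0.77). Cd79a and Ms4a1 are in the list behind the B cell term, so their fall under it was largely built in. The erythroid term turned Hba-a2 (-0.11), itself in the list behind that term, and Prtn3 (-0.37). The omission of Treg libraries high in macrophage transcripts, with the Dcaf1-deficient Tconv, turned Cd79a (-0.073) and Vprbp (0.13), and the tag term Ntn1 (-0.11) and Vprbp (0.10). Ntn1 also turned without young Treg 1, young Tconv 1 or young Tconv 2 (-0.054 to 0.52 over all omissions of 1 library), the young (-0.53) or the Dcaf1-deficient libraries (-0.15), Synpo (0.48) and Eomes (0.13) without the aged, and Vprbp (0.0495) without the Dcaf1-deficient. Genes near 0.163 CPM, at most 3 counts, cannot be told from 0.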

Other observations

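Some genes outside the lists were called under each omission of 1 library, under both sets of other-cell terms and under T cell scaling. They were picked from those 72 higher and 49 lower genes after their values were seen. T cell scaling ended no higher call, so it set a hurdle for the lower genes only. Among the higher ones, Bcl2l1, encoding the survival protein BCL-XL, spanned 70.3 to 136 CPM in Treg with a median of 99.1, against 22.01 to 45.8 CPM in Tconv with a median of 29.8 (log2 fold change 1.56, SE 0.15, edgeR adjusted p 0.000495). Vav2, a guanine nucleotide exchange factor, spanned 109 to 214 CPM in Treg and 24.1 to 63.3 CPM in Tconv (1.73, edgeR adjusted p 0.000762). Rragd, a Rag GTPase of amino acid sensing by mTORC1, spanned 32.8 to 144 CPM in Treg and 7.56 to 21.2 CPM in Tconv (2.46, edgeR adjusted p 0.000967), and Atp6v0a1, a subunit of the proton pump of endosomes and lysosomes, 19.8 to 102 CPM in Treg and 6.85 to 18.9 CPM in Tconv (2.12, edgeR adjusted p 0.00474). Bcat1, the cytosolic branched-chain aminotransferase, differed by 2.32, and Alpl, alkaline phosphatase, by 3.62. In these genes other than Bcat1 no Treg library overlapped a Tconv library.

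Among the lower ones, Fasl, the ligand that triggers cell death through Fas, spanned 4.87 to 8.51 CPM in Treg with a median of 6.32, against 22.8 to 79.9 CPM in Tconv with a median of 24.5 (-2.31, SE 0.25, edgeR adjusted p 0.000963). Sema4a, a semaphorin, spanned 21.03 to 73.8 CPM in Treg and 162 to 288 CPM in Tconv (-2.03, edgeR adjusted p 0.000858). Dusp10, a phosphatase of p38 and JNK kinases, spanned 28.1 to 64.2 CPM in Treg and 65.4 to 148 CPM in Tconv (-1.54, edgeR adjusted p 0.000646). Il1rl2, the interleukin-36 receptor, differed by -2.49 (edgeR adjusted p 0.00169), at 1.84 to 3.31 CPM in Treg and 6.04 to 23.8 CPM in Tconv.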
